A study of Homo sapiens with 9 samples.

Results

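The genes of the RB pocket proteins (RB1, RBL1 and RBL2) and of subunits of the MuvB core (LIN9, LIN37, LIN52 and LIN54) were examined. With those of the core's activating partners MYBL2 and FOXM1, these made 9 of 20033 protein-coding genes with a canonical transcript. They were chosen by name for their roles in the DREAM and RB pathways. Chromatin accessibility had been profiled by ATAC-seq, in which the Tn5 transposase cuts open chromatin and leaves sequencing adapters, in MDA-MB-231 cells, an established human triple-negative breast cancer line. The shRNA libraries numbered 7, with 2 for the control shRNA (shCtrl), 2 for shEZH2, 2 for shE2F1 and 1 for shSUZ12. These cells received lentivirus for 24 h and were selected with puromycin at 2 μg/ml for 72 h, the control cells included. The remaining libraries, 1 each, came from cells given the vehicle DMSO, which the treatment label calls WT, or GSK126, an inhibitor of the EZH2 methyltransferase whose dose the labels do not give. All groups are the same cell line, the labels name each shRNA only by its target, and nothing in them says whether the replicates were separate cultures, so the spread between libraries may be technical.

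Pocket proteins bind E2F transcription factors and hold cell cycle genes silent until cyclin-dependent kinases phosphorylate them. In resting cells RBL1 or RBL2 joins a repressive E2F and the MuvB core to form the DREAM complex, which represses both the replication genes of G1/S and the mitotic genes of G2/M. When cells cycle, MuvB leaves the pocket protein and binds MYBL2 and then FOXM1, and the same core now activates the mitotic genes. EZH2 and SUZ12 are subunits of PRC2, which methylates histone H3 at lysine 27, and E2F1 is an activating E2F. The study asked how loss of EZH2 or E2F1 changes accessibility, and here that question is put to the genes of the complexes that oppose or use E2F.

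The lists held between 58626 peaks, in the second shEZH2 library, and 85812, in the second shE2F1 library, and the most frequent background behind a peak ran from 1.41 tags in the former to 2.18 in the latter, so the lists differed in depth. Promoter peaks of the mesenchymal markers VIM, CD44, EGFR, ZEB1 and AXL were in all 9 libraries for 5 of 5 genes, and those of luminal markers for 0 of 6. A promoter peak is not expression, and 5 of the 6 luminal genes had one in 6 to 8 libraries, so these peaks alone do not separate the cell types. The promoters of the depleted genes were open in all 9 libraries, which does not check a knockdown by shRNA.

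Because the results are about promoters, the bases before the start site are shown first for the 6 members that carry them, those with E2F or cell cycle homology letters and those whose peaks were the most fixed or the most often lower. Of the 9 members, 7 had a RefSeq window (GRCh38.p14, 250 bases before to 50 after the start) at the canonical TSS, and RB1 and FOXM1 are named only. The 120 bases before each TSS are given 5′ to 3′ in the direction of transcription, with capitals for a match on either strand to the E2F letters (TTTCCCGC, TTTGGCGC, TTTCGCGC or TTTGCCGC) or to the letters of the cell cycle homology region, CHR (TTTGAA or TTCGAA), which do not overlap each other here.
RBL1, chr20:37095998-37096117, minus strand: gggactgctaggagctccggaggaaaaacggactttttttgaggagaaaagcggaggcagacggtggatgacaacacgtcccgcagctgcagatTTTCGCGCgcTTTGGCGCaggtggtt
LIN52, chr14:74084836-74084955, plus strand: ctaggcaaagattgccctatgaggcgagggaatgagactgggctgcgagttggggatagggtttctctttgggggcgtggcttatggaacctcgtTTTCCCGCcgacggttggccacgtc
LIN9, chr1:226309165-226309284, minus strand: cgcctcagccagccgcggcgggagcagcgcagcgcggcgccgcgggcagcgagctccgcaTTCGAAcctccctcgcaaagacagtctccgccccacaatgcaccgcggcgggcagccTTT
LIN54, chr4:83010824-83010943, minus strand: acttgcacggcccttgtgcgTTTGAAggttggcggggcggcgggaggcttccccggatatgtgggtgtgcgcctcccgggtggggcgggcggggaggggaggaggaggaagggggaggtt
RBL2, chr16:53434351-53434470, plus strand: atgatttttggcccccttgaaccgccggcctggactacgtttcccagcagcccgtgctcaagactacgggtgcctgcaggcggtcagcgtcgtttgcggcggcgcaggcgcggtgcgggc
LIN37, chr19:35748456-35748575, plus strand: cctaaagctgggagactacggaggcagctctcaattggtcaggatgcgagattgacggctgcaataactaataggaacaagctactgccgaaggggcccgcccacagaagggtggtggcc

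RBL1 held 2 matches to the E2F letters, starting 26 and 16 bases before the TSS, and LIN52 held 1, starting 25 bases before it. These letters were in 3.31% of the 35116 RefSeq windows. LIN9 held 2 matches to the CHR letters, the second of which starts 3 bases before the TSS and runs past it, so that its first letters end the line above. LIN54 held 1, starting 100 bases before the TSS, and RBL2 held 1 after its TSS, outside the bases shown. The CHR letters were in 16.4% of all windows, and neither motif was found in the windows of LIN37 and MYBL2. GC content ran from 58.0% in LIN52 to 76.3% in LIN9, against a median of 58.7% over all windows. A match is only a run of letters and was not tested as a bound site.

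Within 1 kb of the TSS in either direction, 8 of the 9 members had a peak in each of the 9 libraries, and LIN54 had one in 7, with none in the first shCtrl library and none in the shSUZ12 library. Over all protein-coding genes, 12026 of 20033 had a promoter peak in every library, or 60.03%. The level of a peak is given as its percentile, the percentage of the peaks in the same list with a lower fold enrichment, which is the peak summit over its local background. By the median over the 9 libraries, LIN52 stood highest at 91.3, followed by RB1 at 80.4, RBL1 at 69.0, FOXM1 at 68.6, RBL2 at 66.1, LIN9 at 58.7, LIN37 at 53.1, MYBL2 at 40.3 and LIN54 at 2.81. LIN52 was above all other members in all 9 libraries, since its lowest percentile, 89.9, exceeded the highest of any other, 86.3. LIN54 was below all others wherever it had a peak, with a highest percentile of 9.58. Ranges of all neighbours between RB1 and MYBL2 in this order overlapped. The order depended on the measure. By −log10 p the medians were 99.6 for LIN52, 89.8 for LIN37, 84.8 for RBL1, 82.0 for FOXM1 and 81.0 for RB1. They were 73.7 for LIN9, 68.2 for RBL2, 57.4 for MYBL2 and 33.0 for LIN54. By that rank LIN54 was at 47.0 in the first shEZH2 library, above MYBL2 at 41.8.

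**Figure D1:**
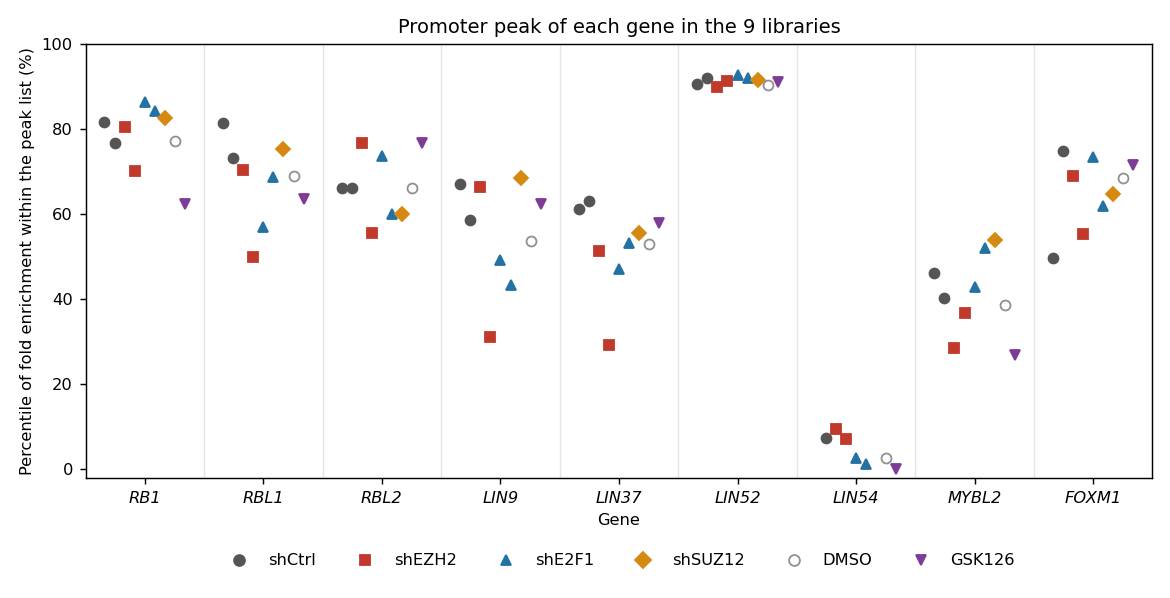
Percentile of the promoter peak's fold enrichment within its own list (y axis, %) for each gene (x axis), with 1 symbol per library, coloured by group. LIN52 stays between 89.9 and 92.7, LIN54 stays below 10 and has no symbol in 2 libraries, and LIN9 and LIN37 spread widest between the shEZH2 libraries.

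RB1, the retinoblastoma protein, is transcribed from chr13:48303751-48481890 on the plus strand. Its promoter percentile was 81.7 and 76.7 in the shCtrl libraries, 80.4 and 70.1 with shEZH2, 86.3 and 84.2 with shE2F1, 82.6 with shSUZ12, 77.1 with DMSO and 62.4 with GSK126. Both shE2F1 libraries were above both shCtrl libraries, the shEZH2 libraries overlapped them, and the GSK126 library was the lowest of the 9. The summit lay between 147 bp before and 32 bp after the TSS and the peak was 878 to 1228 bp wide, and the start of the divergent noncoding RB1-DT lies in the same window.

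RBL1, a pocket protein of DREAM, is transcribed from chr20:36996349-37095997 on the minus strand. Its percentile was 81.3 and 73.2 with shCtrl, 70.4 and 49.97 with shEZH2, 56.9 and 68.7 with shE2F1, 75.3 with shSUZ12, 69.0 with DMSO and 63.5 with GSK126. The shEZH2 and the shE2F1 libraries were all below both shCtrl libraries. The width hardly varied, from 1255 to 1307 bp, but the summit was placed on either side of the TSS, from 304 bp before to 319 bp after, a span of 623 bp that 10.2% of the 12026 promoters with a peak in every library reached or exceeded. The E2F letters printed above lie between those placements, inside the peak of every library. A start of another annotated gene also lies within 1 kb of the TSS.

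RBL2, the pocket protein that prevails in resting cells, is transcribed from chr16:53434471-53491648 on the plus strand. Its percentile was 66.0 and 66.2 with shCtrl, 76.8 and 55.6 with shEZH2, 73.6 and 60.1 with shE2F1, 60.02 with shSUZ12, 66.1 with DMSO and 76.8 with GSK126. The replicates of each knockdown fell on either side of the shCtrl values. Its summit was the most fixed of the members, 4 to 15 bp before the TSS in all 9 libraries. That span of 11 bp was matched or undercut by 3.84% of promoters, where the median span was 83 bp. The right edge moved, with a width of 707 to 1413 bp.

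LIN9, a structural subunit of MuvB, is transcribed from chr1:226231157-226309164 on the minus strand. Its percentile was 67.0 and 58.7 with shCtrl, 66.4 and 31.2 with shEZH2, 49.3 and 43.3 with shE2F1, 68.5 with shSUZ12, 53.8 with DMSO and 62.4 with GSK126. Both shE2F1 libraries were below both shCtrl libraries, while the shEZH2 libraries differed from each other by more than they did from shCtrl on average. Its width ran from 763 to 1433 bp, with the summit 16 to 175 bp before the TSS.

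LIN37, the subunit needed for repression by DREAM, is transcribed from chr19:35748576-35754519 on the plus strand. Its percentile was 61.3 and 63.0 with shCtrl, 51.3 and 29.1 with shEZH2, 47.1 and 53.1 with shE2F1, 55.5 with shSUZ12, 53.0 with DMSO and 58.0 with GSK126. The shCtrl libraries were the highest of all 9. A start of another annotated gene also lies within 1 kb of the TSS. The peak was narrow, 389 to 469 bp, where the median promoter peak of a library was 791 to 1025 bp wide, and its summit lay 90 to 189 bp before the TSS. Its local background was high, 10.5 to 23.7 tags, against library medians of 5.20 to 9.34 over promoter peaks, so its rank depended on the measure, with a median percentile of 89.8 by −log10 p.

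LIN52, the subunit through which MuvB contacts the pocket protein, is transcribed from chr14:74084956-74201493 on the plus strand. Its percentile was 90.6 and 91.9 with shCtrl, 89.9 and 91.3 with shEZH2, 92.7 and 92.0 with shE2F1, 91.5 with shSUZ12, 90.4 with DMSO and 91.0 with GSK126. The values moved by less than 3 points over the whole series. The peak, 1205 to 1431 bp wide with its summit 135 to 388 bp before the TSS, also covers the start of ALDH6A1, so the accessibility cannot be assigned to LIN52 alone.

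LIN54, the DNA-binding subunit of MuvB that recognises the CHR, is transcribed from chr4:82924603-83010823 on the minus strand. At the canonical TSS its percentile was 7.34 in the second shCtrl library, 9.58 and 7.06 with shEZH2, 2.81 and 1.34 with shE2F1, 2.75 with DMSO and 0.219 with GSK126, with no peak in the other two libraries. The peak was small, 200 to 580 bp. The strong site of this gene lay upstream, in a region at chr4:83012151-83013386 centred 1946 bp before the canonical TSS, which holds 3 other annotated start sites of LIN54 and had a peak in all 9 libraries. Its percentile was 82.2 and 90.3 with shCtrl, 80.7 and 89.4 with shEZH2, 83.8 and 85.9 with shE2F1, 93.3 with shSUZ12, 85.2 with DMSO and 89.9 with GSK126. Counting the TSS of any transcript, all 9 members had a promoter peak in all 9 libraries.

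MYBL2, the MYB protein that joins MuvB in S phase, is transcribed from chr20:43667114-43716482 on the plus strand. Its percentile was 46.2 and 40.3 with shCtrl, 28.6 and 36.9 with shEZH2, 43.0 and 52.02 with shE2F1, 53.8 with shSUZ12, 38.6 with DMSO and 27.0 with GSK126. Both shEZH2 libraries were below both shCtrl libraries, and the shE2F1 libraries overlapped them. The summit lay between 155 bp before and 34 bp after the TSS.

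FOXM1, the forkhead factor that drives mitotic genes with MuvB, is transcribed from chr12:2857680-2877174 on the minus strand. Its percentile was 49.7 and 74.8 with shCtrl, 69.1 and 55.3 with shEZH2, 73.4 and 62.0 with shE2F1, 64.8 with shSUZ12, 68.6 with DMSO and 71.6 with GSK126. The shCtrl libraries were the lowest and the highest of the 9, so no group stood apart. The peak was the widest of the members, 1391 to 1740 bp, with its summit within 96 bp before the TSS, and it also covers the start of RHNO1.

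**Figure D2:**
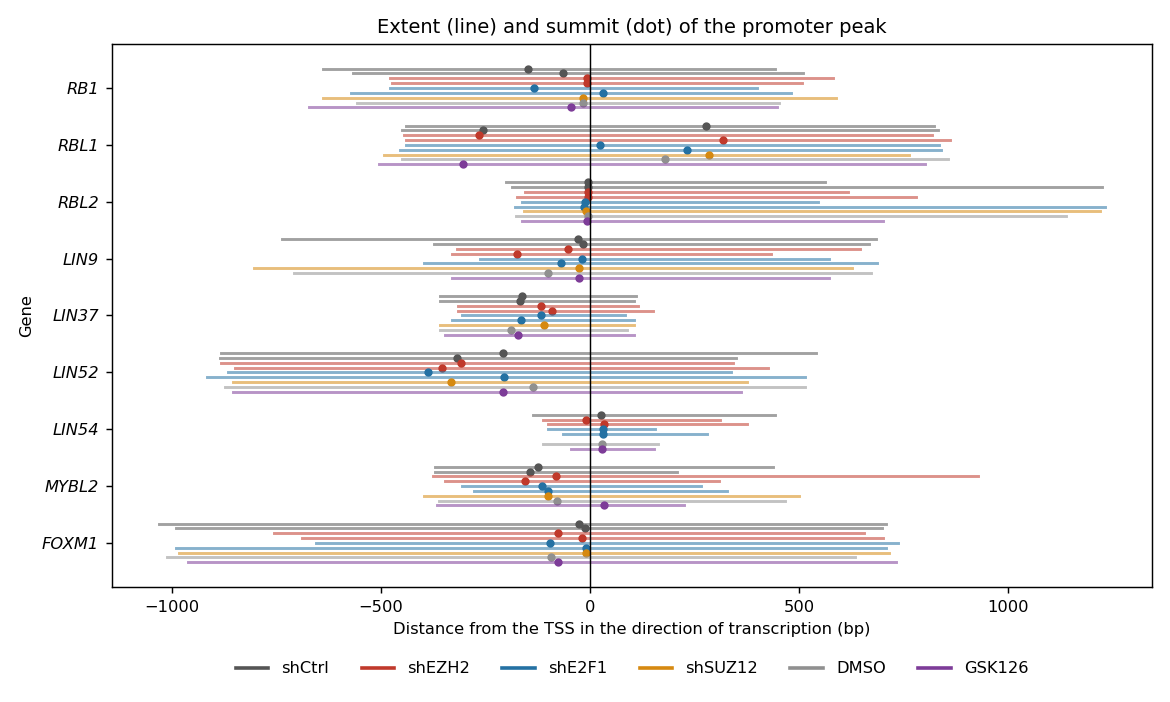
Extent (lines) and summit (dots) of the promoter peak of each gene relative to its TSS (x axis, bp in the direction of transcription), 1 line per library, coloured by group. The RBL2 summits line up within 11 bp, the RBL1 summits are scattered over 623 bp inside a peak of nearly constant extent, and the LIN37 peak is 389 to 469 bp wide.

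With shEZH2, 3 of the 8 members compared, RBL1, LIN37 and MYBL2, were lower in both libraries than in both shCtrl libraries and 0 were higher. Over all 12234 promoters 29.7% were lower and 10.6% higher by the same rule, so the members' count is close to that of promoters at large. The mean difference was −21.93 percentile points for LIN37, from 62.1 ± 1.21 to 40.2 ± 15.6 (SD, n = 2 each). It was −17.06 for RBL1, from 77.3 ± 5.75 to 60.2 ± 14.5, and −10.48 for MYBL2, from 43.2 ± 4.17 to 32.8 ± 5.82 (SD, n = 2 each). The MYBL2 difference was −18.01 by −log10 p and −17.63 by summit tags. It was −3.09 among promoter peaks and turned to 2.54 in lists of the same length. The second shEZH2 library, the shortest list, decided much of the differences of LIN37 and RBL1 by fold enrichment. Without it the differences were −10.87 for LIN37 and −6.82 for RBL1, and the median over members went from −7.21 to −0.0662 points. The median of all promoters was −2.58 with both shEZH2 libraries and −1.51 without the second. With every list held to its 58626 strongest peaks, LIN37 alone was lower and RBL2 higher, the median over members was 1.44, and the promoters at large turned to 23.9% higher and 14.4% lower. Ranked by summit tags, 3 members were again lower, but these were RB1, LIN52 and MYBL2, where 46.3% of all promoters were lower. The difference was then −4.50 points for LIN37 and −12.85 for RBL1, and both overlapped shCtrl.

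With shE2F1, RBL1, LIN9 and LIN37 were lower in both libraries and RB1 and LIN52 higher, 3 and 2 of the 8 members compared. Over all 12516 promoters 17.0% were lower and 19.2% higher. LIN9 differed by −16.60 points, from 62.9 ± 5.91 to 46.3 ± 4.23 (SD, n = 2 each). RBL1 differed by −14.51 points, to 62.8 ± 8.34, and LIN37 by −12.03 points, to 50.1 ± 4.24 (SD, n = 2 each). These 3 differences kept their sign under every other ranking tried but were smaller by summit tags, at −4.93 for LIN9, −8.79 for RBL1 and −3.88 for LIN37. Without the first shE2F1 library that of RBL1 was −8.61. RB1 went from 79.2 ± 3.55 to 85.2 ± 1.49 and LIN52 from 91.3 ± 0.929 to 92.3 ± 0.474 (SD, n = 2 each), but both were lower when peaks were ranked by −log10 p, by 1.21 and 0.52 points. The median over members was 0.90 points and that of all promoters −0.07. Both knockdowns were set against the same shCtrl libraries, so the members lower in both, RBL1 and LIN37, are not independent observations. The single DMSO library, without a knockdown, was at 69.0 for RBL1 and 53.0 for LIN37. Both values lay within the range of the shEZH2 and shE2F1 libraries.

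Tested across all 12070 promoters with a peak in the 6 libraries, by limma on log2 fold enrichment after quantile normalisation, no member passed. The test called 0% of promoters with shEZH2 and 0% with shE2F1 at an adjusted p below 0.05, with 810 and 684 at an unadjusted p below 0.05, of which 0 and 0 were members of the 8 tested. LIN37 had the lowest p with shEZH2, a log2 difference of −0.24 ± 0.13 (SE, limma adjusted p = 0.773). RBL1 had the lowest with shE2F1, −0.28 ± 0.14 (SE, limma adjusted p = 0.850), followed by LIN9 at −0.27 ± 0.17 (SE). The 95% interval ran from −0.53 to 0.04 for LIN37 with shEZH2 and from −0.61 to 0.04 for RBL1 with shE2F1. That of MYBL2 with shEZH2 was centred at −0.01 and ran from −0.33 to 0.30, so on this scale its lower percentile was not a detectable difference, and that of LIN52 ran from −0.25 to 0.29 with shEZH2 and from −0.26 to 0.28 with shE2F1. With 2 libraries against 2, an exact permutation test of a single gene cannot give a two-sided p below 0.33.

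In the single shSUZ12 library, 0 of 8 members lay at least 10 percentile points above the range of shCtrl and 0 as far below it, where 9.67% and 3.00% of 12868 promoters did. MYBL2 came nearest, 10.6 points over the shCtrl mean, but within 10 points of the higher shCtrl library. RBL2 and LIN37 differed from the shCtrl mean by −6.11 and −6.67 points. With GSK126, RBL2 was higher than with DMSO by 10.7 points, while RB1 and MYBL2 differed by −14.65 and −11.67 points, 1 and 2 of the 9 members. Over 12823 promoters 6.87% were higher and 15.4% lower by at least 10 points. These are single libraries with no replicate check, and promoters differed by as much between replicates of a group. The second replicate was higher at 13.9% and lower at 8.90% of promoters for shCtrl, at 11.1% and 24.6% for shEZH2, and at 26.6% and 8.28% for shE2F1. Ranked by −log10 p, LIN54 differed by −30.17 points and RB1 by −12.45, while MYBL2 at −9.42 and RBL2 at 2.33 no longer reached 10 points.

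**Figure D3:**
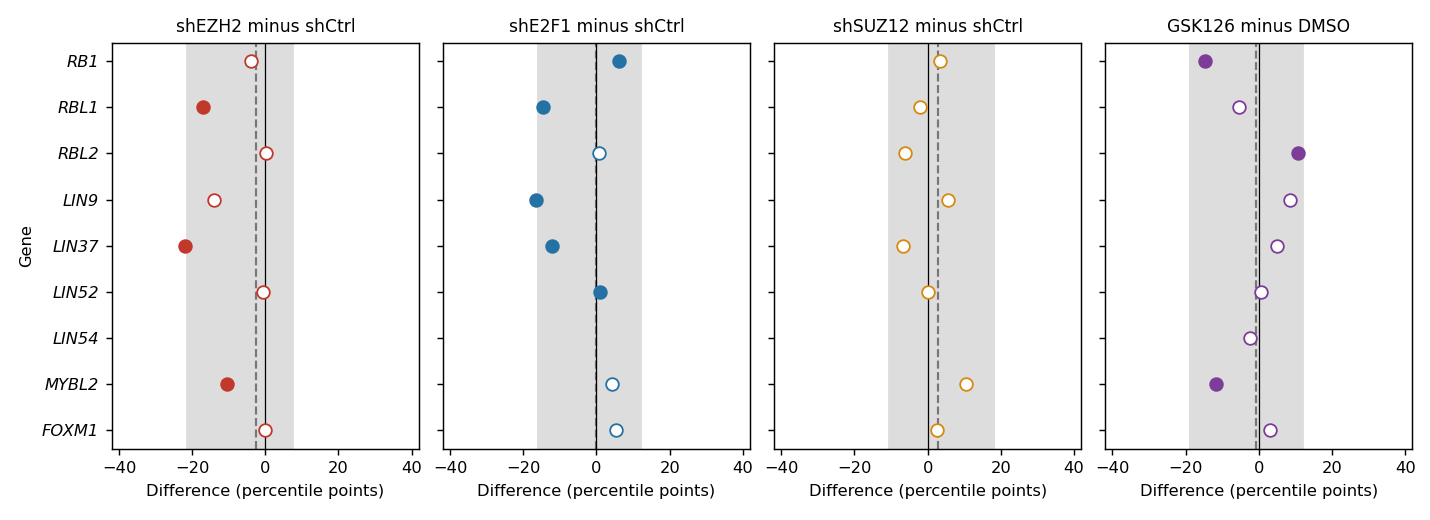
Difference in promoter percentile (x axis, percentile points) for each gene in the 4 comparisons. Filled dots mark genes whose libraries do not overlap (shEZH2, shE2F1), that lie at least 10 points outside the shCtrl range (shSUZ12) or that differ by at least 10 points (GSK126). MYBL2 with shSUZ12, 10.6 points over the shCtrl mean, is therefore open. The grey band holds the middle 90% of all promoters and the dashed line is their median. LIN54 has no dot where a library lacked a peak, and LIN37 with shEZH2 and LIN9 with shE2F1 lie just outside the band.

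Other genes of the pathway were counted by the same rules, against 10.6% of all promoters higher and 29.7% lower with shEZH2, and 19.2% and 17.0% with shE2F1. Of 6 DREAM partners, with shEZH2 E2F5, a repressive E2F, was higher by 26.4 points, and E2F4, its close relative, and TFDP1, a dimer partner of E2Fs, differed by −25.39 and −13.11 points. With shE2F1 E2F5 was higher by 18.9 and TFDP1 by 10.0 points, and DYRK1A, the kinase that promotes DREAM assembly, differed by −26.29. Single libraries carried several of these values. Without the second shEZH2 library E2F4 was at −10.05 and TFDP1 at −6.53 points, and without the first shE2F1 library DYRK1A was at −10.24. With shE2F1 TFDP1 was at 5.05 without the second shCtrl library. Of 7 kinases and cyclins compared, 4 were lower with shEZH2, CCNE1 at −20.68 points, CCND3 at −7.23, CCND1 at −2.86 and CDK6 at −1.16, and 0 higher. The CCND1 and CDK6 peaks were at the floor of the lists, between 0.0651 and 5.15 in these libraries, and CCNE1 was at −10.07 without the second shCtrl library. With shE2F1, 1 of 5 was higher and 0 lower.

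Of 14 G1/S targets compared, 2 were higher and 2 lower with shEZH2, and 4 higher and 2 lower with shE2F1, MCM7 by 11.2 points. Of 15 G2/M targets, the genes that MuvB serves with MYBL2 and FOXM1, 6 were higher with shEZH2 and 2 lower, with PLK1 higher by 26.4, CDC20 by 11.6 and CCNA2 by 10.0 points (6.14 without the first shCtrl library), and with shE2F1 3 were higher and 1 lower. The smallest of the 6 differences with shEZH2 was 0.32 points. Counts for these targets are not given for lists of the same length, where 23.9% of all promoters were higher with shEZH2. The median difference of the G2/M list was 1.34 points with shEZH2 and 1.92 with shE2F1, and that of the G1/S list −0.27 and 2.53. With shSUZ12, 4 of 15 G1/S targets were at least 10 points above the shCtrl range, CDT1 by the largest mean difference of 40.8 points, and 0 of 15 G2/M targets were, where 9.67% of all promoters were. With GSK126, 2 of 15 G1/S and 2 of 15 G2/M targets were lower, among them CDT1 at −14.82 and AURKB at −12.19 points, where 15.4% of all promoters were.

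In the gene bodies and within 50 kb of the TSS, the peaks of all 9 libraries merged into 58 regions. Every library had a peak at 21 of them (36.2%), and 14 (24.1%) were seen in 1 library. Of 118719 regions in the genome the shares were 34.2% and 24.3%. The window of LIN37, in a gene-dense stretch, held 14 regions, and that of RB1, whose gene is the longest of the members at 178140 bp, held 3, of which the promoter alone was in every library. The 5 regions away from members' promoters with the highest median percentiles in all 9 libraries were largely promoters of neighbours. They were the COPS4 promoter 24190 bp upstream of LIN54 at 99.9, the ARHGAP33 promoter downstream of LIN37 at 92.1, a region 45913 bp upstream of LIN37 at 91.8, a region 9379 bp upstream of MYBL2 at 91.0, and the TULP3 promoter upstream of FOXM1 at 90.5.

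**Figure D4:**
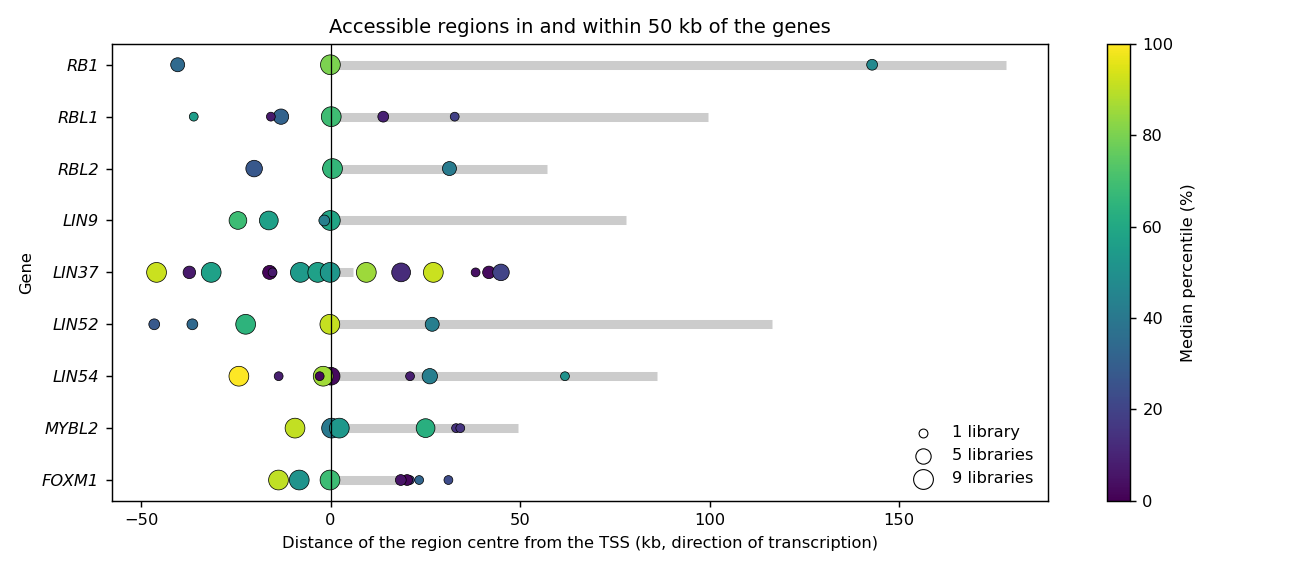
Accessible regions by the distance of their centre from the TSS of each gene (x axis, kb in the direction of transcription), with the gene body in grey. Symbol size gives the number of libraries with a peak and colour the median percentile; LIN37 has 14 regions and RB1 has 3.

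Away from the promoters, a large difference lay in the first intron of MYBL2, in a region at chr20:43669121-43669721 centred 2307 bp after the TSS, which was singled out after its values were seen. Its percentile was 64.3 and 65.0 with shCtrl, 30.6 and 33.8 with shEZH2, 23.5 and 53.2 with shE2F1, 33.4 with shSUZ12, 62.8 with DMSO and 61.4 with GSK126. All 5 libraries with a knockdown were below all others, while GSK126 stayed near DMSO. The share of regions in the genome with this pattern was not counted, and shSUZ12, DMSO and GSK126 are single libraries. In lists of the same length it was again lower in both libraries of either knockdown, at 16.5 and 33.8 with shEZH2 and 13.4 and 31.4 with shE2F1, against 52.1 and 51.2 with shCtrl.

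Of 15 such regions shared by the shCtrl and shEZH2 libraries, 8 were lower and 3 higher with shEZH2, where 31.6% and 11.6% of 47105 shared regions in the genome were. In lists of the same length the balance turned to 2 lower and 5 higher. The share of all shared regions was not counted in those lists for either knockdown. Of all promoters there, 23.9% were higher and 14.4% lower with shEZH2. Of the 8, 4 lay around LIN37, by −7.64 to −13.15 points. In lists of the same length 1 of these 4 was lower, 2 overlapped shCtrl and 1 was higher. The promoters of KMT2B and of PSENEN and U2AF1L4 are among these 4. The 15 also include the COPS4, TULP3 and ARHGAP33 promoters and the LIN54 region that holds other starts of LIN54. A region 8260 bp upstream of FOXM1 went from 80.8 and 60.3 to 47.1 and 47.3, which overlapped in lists of the same length. A region 22402 bp upstream of LIN52 was higher, from 64.5 and 57.2 to 85.9 and 77.8, also in lists of the same length. Of 17 regions shared with shE2F1, 2 were lower and 2 higher, where 22.6% and 16.8% of 51211 were. In lists of the same length fewer regions were shared, and of those 1 was lower and 1 higher. The other lower and the other higher region, both around LIN37, were no longer shared there. At the LIN52 region the shE2F1 libraries, 81.5 and 63.2, overlapped shCtrl.

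**Figure D5:**
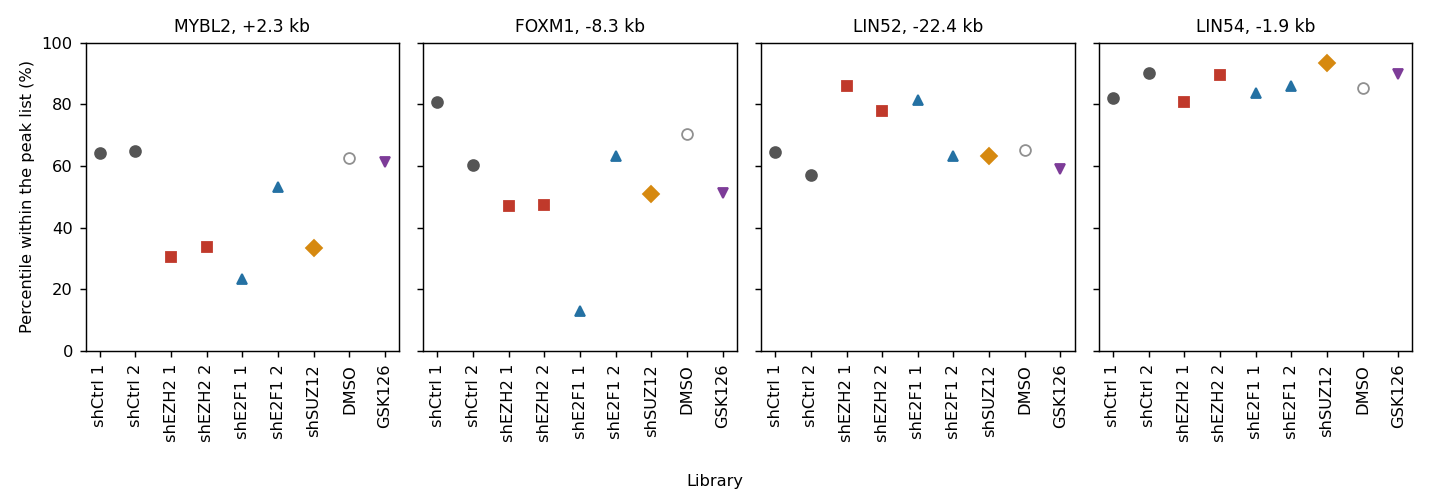
Percentile (y axis, %) of 4 regions away from the canonical promoters in each library (x axis), named by gene and distance of their centre from the TSS. The MYBL2 region is at 23.5 to 53.2 in the 5 knockdown libraries and at 61.4 to 65.0 in the others, and the LIN54 region stays at 80.7 to 93.3.

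A region was called lost when both shCtrl libraries and neither knockdown library had a peak, and gained in the opposite case. With shEZH2, 5 of 50 regions near members were lost and 0 gained, against 7.20% and 0.889% of 99181 regions in the genome. They lay in intron 13 of RBL2 (chr16:53465701-53465982), in exon 2 of LIN54 (chr4:82984417-82984790), 45013 bp after the TSS of LIN37 (chr19:35793465-35793712), in exon 9 of FOXM1 (chr12:2858487-2858789) and beyond the end of FOXM1 near the start of TEX52 (chr12:2856803-2857139). With shE2F1, 3 of 51 were lost, those of RBL2 and FOXM1 among these, and 1 was gained, 1656 bp upstream of LIN9 (chr1:226310674-226310965), against 3.81% lost and 2.86% gained of 107395. The lost regions were weak in shCtrl, with percentiles from 2.05 to 42.2, and in lists of the same length 0 were lost with either knockdown. The RBL2 region had a peak with shSUZ12 and DMSO and none with GSK126, and the FOXM1 regions had none outside shCtrl.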

How the data were processed

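The authors aligned the ATAC-seq reads of each library with Bowtie2, shifted them for the Tn5 cut and called peaks per library, without pooling. The builds in the submitters' processing notes are hg38 and GRCh38, and the peak caller is not given in the sources used here. Each deposited list holds a score, 10 times −log10 q rounded down for nearly all peaks, a fold enrichment (the ratio of summit to local background), and −log10 p and −log10 q, all as deposited by the authors. Depth is known only through the tags recovered from fold enrichment and −log10 p, which fitted every peak of all 9 libraries to within 0.002 in −log10 p.

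The members and lists were chosen with earlier results of these data known. A promoter ran from 1 kb before to 1 kb after the start of the GENCODE v44 canonical transcript, and the peak with the highest fold enrichment stood for each. Percentiles were ranks of fold enrichment within each list. Knockdowns were compared by non-overlap of 2 libraries against 2, single libraries by a distance of at least 10 points, and promoters by limma 3.58.1 in R 4.3.3 with Benjamini-Hochberg adjustment over all promoters. Peaks were merged at an overlap of 1 bp. Scripts, in Python 3.11.15, were tested on simulated data. Alternatives were another rank, lists of the same length, other windows, a −log10 q of at least 5, other normalisations, a replicate block and leaving out each replicate. The comparison of shared regions and the values of other pathway genes without single libraries were added after the data were seen. All members were named. Away from promoters, lost and gained regions and the 5 strongest shared ones were named. Of other pathway genes, at most 3 per list and comparison were named, among those with the largest differences. The exception was the kinases and cyclins lower with shEZH2, where all 4 were named. A list of blood markers is not reported here.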

Additional observations from a re-analysis of the deposited data

How the results depend on the processing

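Presence of a promoter peak in all 9 libraries held for 8 members under 4 of 5 alternatives and for 9 with the TSS of any transcript. The limma test called 0 members in either comparison under every alternative, the replicate block included (0 and 0). The numbers of the replicates are not known to pair the libraries. The differences between replicates 1 and 2 correlated at 0.0529, 0.0488 and 0.00231 across promoters between groups. This does not exclude that libraries with the same number were prepared together. Ranked by −log10 p, 5 members were lower with shEZH2 (42.2% of all promoters), 0 higher with shE2F1 (12.4%) and 0 higher with GSK126 (3.90%), and RB1 and LIN52 turned to −1.21 and −0.52 points with shE2F1. In lists of the same length, 1 member was higher and 1 lower with shEZH2 (23.9% and 14.4% of all promoters), with a median of 1.44 points and MYBL2 at 2.54. There 1 was above the shCtrl range with shSUZ12 (19.2%), 3 were higher and 1 lower with GSK126 (13.4% and 11.9%), and 0 regions were lost with shEZH2 or shE2F1. Ranked among promoter peaks only, 1 was lower with shEZH2 (22.6%, median −2.55), 0 higher with shE2F1 (16.6%), 2 below the range with shSUZ12 (6.77%, median −4.43) and 1 lower with GSK126 (15.004%). Ranked by summit tags, 0 were higher and 5 lower with shE2F1 (12.02% and 24.1%, median −4.39), 0 higher with GSK126 (2.30%), and RB1 and LIN52 turned to −4.997 and −0.55 points with shE2F1. By that rank the 3 members lower with shEZH2 were RB1, LIN52 and MYBL2 (46.3%), no longer RBL1 and LIN37. Leaving out 1 replicate at a time gave 0 to 1 members higher and 4 to 6 lower with shEZH2, with a median from −9.93 (without shCtrl 2) to −0.0662 (without shEZH2 2), and 3 higher and 3 to 5 lower with shE2F1, with a median from −5.26 (without shCtrl 1) to 1.07. Without either shCtrl library, 1 member was above the remaining one with shSUZ12 and 0 to 1 below. Regions gained and lost numbered 0 to 3 and 5 to 10 with shEZH2, and 1 to 6 and 3 to 7 with shE2F1, most gained without shEZH2 2 or shE2F1 1. With 1 library left in a group non-overlap is easier to meet. Of all promoters 41.99% to 53.8% were then lower with shEZH2 and 27.3% to 44.9% with shE2F1. The shares higher were 18.0% to 26.5% with shEZH2 and 29.6% to 43.8% with shE2F1. No such share is given here for the shSUZ12 counts or for the regions gained and lost. The peak at the canonical TSS of LIN54 was present in 5 to 7 libraries under the alternatives that kept this TSS. Depth differed between the lists, and its part in the results was not tested.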
